A study of Mus musculus with 20 samples.

Results

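Transcripts of 10 hepatic apolipoprotein genes were followed in the livers of 20 mice on a high-fat diet (HFD). They were chosen by name (Apoa1, Apoa2, Apoa4, Apoa5, Apob, Apoc1, Apoc2, Apoc3, Apoe and Apoh), and all 10 were found among the 21780 genes of the deposited count table by their Ensembl identifiers. Each of the 4 exposure groups held 5 male C57Bl/6J mice, and the mice of different groups were different animals. All mice were 8 weeks old when the HFD (42% of kcal from fat) began and received 1 oral gavage at 10 weeks of age. The gavage held corn oil alone (HFD control), Aroclor 1260 at 20 mg/kg (HFD + Aroclor), PCB 126 at 20 µg/kg (HFD + PCB 126) or both at the same doses (HFD + Aroclor + PCB 126). The diet lasted 12 weeks in all. The study's methods give 10 weeks of PCB exposure and the sample labels give 12 weeks, and no group on a control diet was sequenced. Aroclor 1260 is a commercial mixture of mostly non-dioxin-like polychlorinated biphenyls (PCBs), and PCB 126 is a dioxin-like congener that activates the aryl hydrocarbon receptor (AhR).

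Apolipoproteins are the protein coat of the particles that carry triglyceride and cholesterol in blood. The liver secretes very-low-density lipoprotein (VLDL) around a single large molecule of apolipoprotein B, and it secretes apolipoproteins A-I and A-II as the core proteins of high-density lipoprotein (HDL). The small exchangeable apolipoproteins move between particles, where they activate or inhibit lipoprotein lipase, activate the cholesterol-esterifying enzyme LCAT, or act as ligands for receptors that return remnants to the liver. Most of these genes are transcribed mainly in hepatocytes, under the control of nuclear receptors and liver-enriched factors.

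With the combined exposure, transcripts of 7 of the 10 genes passed the test against HFD control (adjusted p under 0.05), as did 32.8% of all genes tested. Apob rose, and Apoa1, Apoa2, Apoa5, Apoc1, Apoc3 and Apoe fell. With Aroclor alone 0 of 10 passed (0% of all genes), and with PCB 126 alone 0 of 10 (0.116% of all genes). Apob, the member that rose, had the lowest G and C content of the 10 at 43.7%, and the 6 that fell lay between 52.6% and 60.0%. After a correction for G and C content in each library, 0 of the 10 genes passed for any exposure, and the median log2 fold change of the 10 with the combined exposure was −0.26, against −0.032 over all genes.

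Since the members differ in G and C content, coding stretches of 120 bases are shown for 4 of them, read from the GENCODE M21 transcripts (GRCm38). Each lies within 1 exon and was taken where its G and C content came nearest to that of the gene's transcripts. The bases are written 5′ to 3′ on the coding strand, and capitals mark G and C. The Apob stretch (exon 5 of 29, chr12:7983059-7983178, plus strand) had 43.3% G and C, that of Apoe (exon 3 of 4, chr7:19697504-19697623, minus strand) 60.0%, that of Apoa1 (exon 4 of 4, chr9:46229933-46230052, plus strand) 55.8% and that of Apoc3 (exon 3 of 4, chr9:46234421-46234540, minus strand) 56.7%.
Apob: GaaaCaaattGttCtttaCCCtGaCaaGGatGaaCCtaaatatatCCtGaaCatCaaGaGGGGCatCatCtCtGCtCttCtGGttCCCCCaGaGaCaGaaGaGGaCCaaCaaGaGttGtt
Apoe: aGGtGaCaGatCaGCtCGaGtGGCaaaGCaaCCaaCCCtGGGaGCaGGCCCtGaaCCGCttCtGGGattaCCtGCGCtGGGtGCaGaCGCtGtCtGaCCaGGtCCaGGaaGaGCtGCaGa
Apoa1: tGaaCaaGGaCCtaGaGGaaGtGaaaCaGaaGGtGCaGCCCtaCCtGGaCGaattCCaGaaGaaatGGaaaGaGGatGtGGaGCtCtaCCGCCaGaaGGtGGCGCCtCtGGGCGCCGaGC
Apoc3: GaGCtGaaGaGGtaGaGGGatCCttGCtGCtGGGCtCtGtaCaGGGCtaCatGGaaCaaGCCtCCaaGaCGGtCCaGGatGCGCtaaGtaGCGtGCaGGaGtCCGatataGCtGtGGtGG

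The promoters were searched for the core letters bound by AhR, since PCB 126 acts through this receptor. The RefSeq table of GRCm38.p6 held the 250 bases before the start for 8 of the 10 members, and none for Apoc1 and Apoc3. On either strand, the AhR core GCGTG was found in 0 of these 8, against 28.2% of the 32851 mouse promoters of the same length. The exact string CAAAGTCCA, a form of the HNF4 element, was found in 0 of 8 (0.384% of all promoters). So rare a string is absent from most promoters, and other forms were not searched. Whether these promoters hold HNF4 sites cannot be told from this. The letters TATAAA of the TATA box were found in Apoa2, Apoa5, Apob and, at an alternative start, Apoe. A member with several starts was counted once, while the share of all promoters with TATAAA (12.4%) counts each promoter singly. The promoters of Apob (chr12:7977427-7977676, plus strand), which rose, and of Apoa5 (chr9:46268358-46268607, plus strand), which fell, are shown with the TATAAA in capitals. It begins 60 bases before the RefSeq start of Apob and 31 bases before the start of Apoa5 that this promoter precedes. From the other RefSeq start of Apoa5, at chr9:46268633, it is 56 bases away. In Apoa2 the TATAAA begins 212 bases before the start, and in Apoe 96 bases before the alternative start.
Apob promoter: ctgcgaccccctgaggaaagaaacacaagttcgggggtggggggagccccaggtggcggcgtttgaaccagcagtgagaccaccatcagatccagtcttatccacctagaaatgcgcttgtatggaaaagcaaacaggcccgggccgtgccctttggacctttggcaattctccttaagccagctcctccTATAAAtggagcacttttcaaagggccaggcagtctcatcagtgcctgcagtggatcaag
Apoa5 promoter: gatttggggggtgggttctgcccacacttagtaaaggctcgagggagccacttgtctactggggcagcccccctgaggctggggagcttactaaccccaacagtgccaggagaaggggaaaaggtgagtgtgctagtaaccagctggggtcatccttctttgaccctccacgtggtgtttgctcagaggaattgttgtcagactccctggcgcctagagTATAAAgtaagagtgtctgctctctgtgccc

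The members lie at 5 places in the genome (GRCm38). On chromosome 9, Apoa1 (chr9:46228580-46230466), Apoc3 (chr9:46232933-46235636), Apoa4 (chr9:46240696-46243459) and Apoa5 (chr9:46268633-46271919) form 1 cluster. On chromosome 7, Apoc2 (chr7:19671579-19677941), Apoc1 (chr7:19689481-19692660) and Apoe (chr7:19696109-19699188) form another. Apoa2 is at chr1:171225054-171226379, Apob at chr12:7977648-8016835 and Apoh at chr11:108343354-108414396.

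The libraries were compared as CPM, the reads of a gene scaled to a common library size, after TMM scaling of the deposited read counts. The total count per library was between 21836506 and 36854887. In each library Apoc2 had 10 to 51 reads, and each of the other members had at least 14580. Cyp1a2, an AhR target that served as a check of the labels, averaged 387 ± 99.4 CPM (SD, n = 5) in the controls, 385 ± 76.2 with Aroclor, 1590 ± 606 with PCB 126 and 775 ± 186 with the combined exposure. It rose with PCB 126 (log2 fold change, log2FC, 2.04, edgeR adjusted p = 0.000294) and with the combined exposure (1.00, adjusted p = 0.00325). Cyp1a1, another AhR target, was at 0.612 ± 0.284 CPM in the controls, 78.6 ± 134 with PCB 126 (log2FC 6.93, adjusted p = 0.00950) and 1.32 ± 0.746 with the combined exposure (log2FC 1.06, adjusted p = 0.502). Of the genes that respond to non-dioxin-like PCBs, Cyp2b10 (log2FC 1.97, adjusted p = 0.222) and Cyp3a11 (0.35, adjusted p = 0.417) did not pass with Aroclor, and with the combined exposure Cyp3a11 rose (0.89, adjusted p = 0.00652) and Cyp2b10 did not pass (1.72, adjusted p = 0.0830).

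Markers of liver cell types were measured in the same libraries. The 7 hepatocyte markers were present in every group, with a summed level whose median lay between 81924 and 90360 CPM and whose ranges overlapped across all groups. Alb, at group means of 57489 to 71216 CPM, made up most of this sum. With the combined exposure 3 of the 7 hepatocyte markers fell and 0 rose (17.0% of all genes fell), and 1 passed after the G and C correction. Of the 6 enterocyte markers, 3 were at 0 in each group, Vil1 averaged at most 0.208 CPM in any group, and Fabp2, at group means of 404 to 485 CPM, made up nearly all of their sum. The 7 markers of Kupffer cells and macrophages had summed medians between 292 and 364 CPM with overlapping ranges, and 1 rose with the combined exposure. Of 5 stellate markers, 2 rose and 1 fell. Their summed level was 71.2 to 120 CPM in the controls and 122 to 157 CPM with the combined exposure, without overlap. Reln, Rgs5 and Lrat, whose means were higher with the combined exposure, made up most of this sum. Des averaged 6.02 CPM in the controls and 2.29 with the combined exposure, and Col1a1 7.94 and 7.87 CPM. Of 5 endothelial markers 1 fell, of 3 blood markers 1 rose, and of 4 cholangiocyte markers 0 passed, with sums that overlapped between the controls and the combined exposure. For comparison, 15.8% of all genes rose and 17.0% fell with the combined exposure. After the G and C correction 0 of the markers of these last 5 cell classes passed. Their part in the changes of the apolipoproteins was not tested. In whole liver, fewer cells of a type and less RNA per cell cannot be told apart.

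The apolipoproteins were among the most abundant transcripts. Together they made up 5.51 ± 0.653% (SD, n = 5) of all counts in HFD control, 4.75 ± 0.334% with Aroclor, 5.12 ± 0.785% with PCB 126 and 3.96 ± 0.482% with the combined exposure. The lowest library was replicate 4 of the combined exposure (3.38%) and the highest was replicate 1 of HFD control (6.25%). The highest combined library (4.49%) lay below the lowest control library (4.60%). Ranked by mean CPM over the 20 libraries among 15522 tested genes, Apoe was 4th, Apoa2 7th, Apob 11th, Apoc1 14th, Apoa1 15th, Apoh 45th, Apoa4 49th, Apoc3 85th and Apoa5 127th, while Apoc2 was 11579th. The rank of Apoc2 is uncertain, since 79.5% of its exon bases are shared with another gene on the same strand.

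Levels between genes were compared per kilobase of exon, since Apob has 13934 exon bases and Apoa2 has 537. On this scale the level was highest for Apoa2 (19178 CPM per kilobase, mean over 20 libraries), followed by Apoc1 (7894), Apoe (5705), Apoa1 (4740), Apoh (1688), Apoc3 (1637), Apoa4 (1441), Apob (443), Apoa5 (429) and Apoc2 (1.03). The level of Apoc2 is uncertain on this scale too, because of its shared exon bases. The order of close neighbours depended on the group. In HFD control Apoc3 (2004 ± 297 CPM per kilobase), Apoh (1737 ± 157) and Apoa4 (1441 ± 499.7) lay within their spread of each other, and Apoa5 (560 ± 72.5) was above Apob (366 ± 73.0). With the combined exposure Apob (537 ± 55.9) was above Apoa5 (337 ± 102).

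The plot of each mouse's level shows the spread that every comparison was held against.

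**Figure D1:**
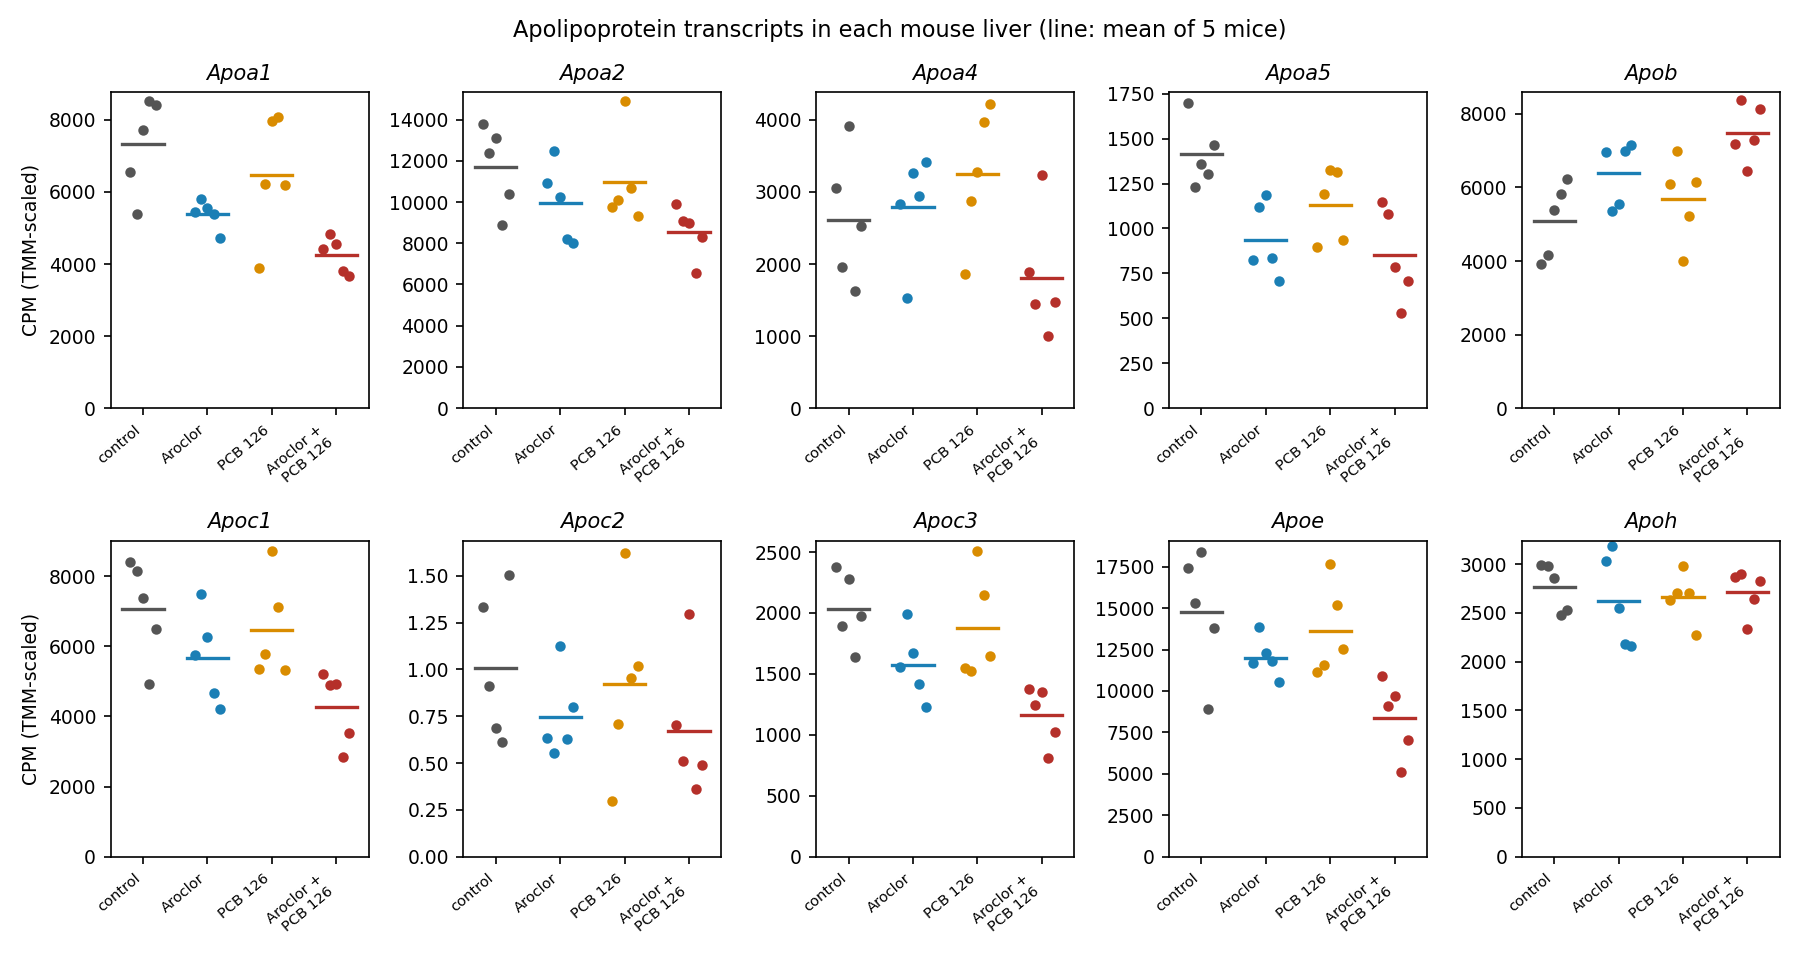
CPM after TMM scaling (linear axis from 0) of the 10 apolipoproteins, with a point for each mouse and a line at the mean of the 5 mice of a group. All combined-exposure mice lie above all controls for Apob and below all controls for Apoa1, Apoa5 and Apoc3, whereas Apoh overlaps in all groups.

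Apob encodes the structural protein of VLDL and low-density lipoprotein, 1 molecule to a particle. In HFD control its level was 3923, 4151, 5382, 5815 and 6226 CPM in the 5 mice. With the combined exposure it was 7193, 8371, 6434, 7278 and 8126 CPM. All 5 combined-exposure mice were above all 5 controls. The mean was 7481 ± 779 CPM against 5099 ± 1018 (SD, n = 5), a 1.47-fold rise (log2FC 0.55, standard error 0.152, adjusted p = 0.00896 by edgeR's quasi-likelihood test). With Aroclor alone it was 6403 ± 868 CPM (log2FC 0.33, adjusted p = 0.276), and with PCB 126 alone 5688 ± 1137 CPM (log2FC 0.16, adjusted p = 0.667). Neither passed the test, and both ranges overlapped the controls. Replicate 3 of HFD + PCB 126 had 3995 CPM, lower than every other mouse of its group.

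Of the 15522 genes tested, 32.8% passed an adjusted p of 0.05 between the combined exposure and HFD control, 15.8% as higher and 17.0% as lower. The apolipoproteins passed in 7 of 10 cases, 1 higher and 6 lower. Their median log2FC was −0.65, against −0.00096 over all tested genes. In 4 of the 10 the groups did not overlap, and the share of all genes without overlap was not counted. With Aroclor alone 0% of all genes passed, and 0 of 10 members. An unadjusted p under 0.05 was found for 4 members and for 2677 of the 15522 genes. With PCB 126 alone 0.116% of all genes passed, and 0 of 10 members. Here 0 members and 2280 genes had an unadjusted p under 0.05.

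Transcripts of both main HDL proteins were lower with the combined exposure, and neither passed after the G and C correction. Apolipoprotein A-I, the main HDL protein and the activator of LCAT, is encoded by Apoa1. Its transcript was at 6557, 5392, 7728, 8529 and 8416 CPM in the controls and at 4419, 4832, 4544, 3819 and 3676 CPM after both exposures. The groups did not overlap, and the level was 1.72-fold lower (log2FC −0.78, standard error 0.163, adjusted p = 0.00193). The Aroclor mice lay close together at 4729 to 5793 CPM (log2FC −0.44, adjusted p = 0.215), and the PCB 126 mice spread from 3888 to 8081 CPM (log2FC −0.18, adjusted p = 0.644). Apoa2, the second HDL protein, was at 13767, 12395, 13098, 8880 and 10372 CPM in the controls and 9913, 9058, 9004, 6573 and 8283 CPM with both exposures. Here the ranges overlapped, and the fall was smaller (log2FC −0.45, standard error 0.159, adjusted p = 0.0351). It passed in 5 of the 10 fits that left out 1 of these mice, which gave log2FC values of −0.53 to −0.38 and an adjusted p of up to 0.0937.

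Among the regulators of lipolysis, apolipoproteins C-I and C-III inhibit lipoprotein lipase or the uptake of remnants, while C-II activates the enzyme and A-V promotes triglyceride clearance. Apoc3 was at 2379, 1892, 2283, 1637 and 1972 CPM in the controls and at 1374, 1246, 1352, 813 and 1026 CPM after the combined exposure. Every combined-exposure mouse was below every control, and the level was 1.75-fold lower (log2FC −0.81, standard error 0.171, adjusted p = 0.00208). Apoc1 went from 8411, 8138, 7380, 4925 and 6503 CPM to 5203, 4893, 4920, 2840 and 3529 CPM. Control replicate 4, at 4925 CPM, was within the range of the exposed mice, and the difference passed the test (log2FC −0.73, standard error 0.197, adjusted p = 0.00836).

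Apoa5 had 1700, 1231, 1359, 1303 and 1465 CPM in the control mice and 1145, 1079, 783, 530 and 710 CPM after both exposures, again without overlap (log2FC −0.73, standard error 0.189, adjusted p = 0.00621). With Aroclor alone its values were 824, 1120, 1189, 838 and 710 CPM, also all below the controls. This was the member of smallest p with Aroclor, and it did not pass (log2FC −0.59, standard error 0.189, adjusted p = 0.195). The PCB 126 mice averaged 1133 ± 205 CPM and the controls 1412 ± 183 (log2FC −0.32, adjusted p = 0.444).

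Apoc2 was counted at only 10 to 51 reads a library. Its mean was 1.01 ± 0.394 CPM (SD, n = 5) in HFD control, 0.748 ± 0.230 with Aroclor, 0.921 ± 0.484 with PCB 126 and 0.673 ± 0.368 with the combined exposure (log2FC −0.58, standard error 0.401, adjusted p = 0.285). The annotated exons of Apoc2 share 79.5% of their bases with a read-through gene on the same strand, Gm44805, which was listed at 446 counts over the 20 libraries against 498 for Apoc2. Its level here is therefore uncertain. The neighbouring Apoc4 had 5076 to 29261 counts a library.

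Apolipoprotein E directs remnant particles to hepatic receptors. Apoe, the most abundant member by CPM, was at 17423, 15335, 18414, 8909 and 13792 CPM in the controls and at 10923, 9104, 9726, 5125 and 7039 CPM after the combined exposure. The mean fell from 14775 ± 3740 to 8383 ± 2302 CPM (1.76-fold lower, log2FC −0.82, standard error 0.198, adjusted p = 0.00435). Control replicate 4 (8909 CPM) lay among the exposed mice. With Aroclor alone the range was 10518 to 13836 CPM (log2FC −0.30, adjusted p = 0.420) and with PCB 126 alone 11141 to 17634 CPM (log2FC −0.12, adjusted p = 0.824).

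Apoa4, which the intestine and the fatty liver secrete, had the widest spread of the abundant members, with a within-group SD of 0.52 on the log2 scale. Its level was 3060, 1961, 3908, 1622 and 2528 CPM in the controls, and 1892, 1443, 3235, 998 and 1475 CPM with both exposures. The groups overlapped, and the log2FC was −0.53 (standard error 0.296, adjusted p = 0.179). The mean was 2796 ± 750 CPM with Aroclor (log2FC 0.10) and 3242 ± 941 CPM with PCB 126 (log2FC 0.31, adjusted p = 0.664). The interaction, the combined change less the sum of the single changes, was −0.94 for Apoa4 (standard error 0.418, unadjusted p = 0.0360, adjusted p = 0.394). When replicate 3 of the combined exposure (3235 CPM) was left out, the difference of Apoa4 from HFD control was −0.87 (adjusted p = 0.0229). A pair of genes on the other strand, not used here, overlap 34.8% and 34.9% of its exon bases.

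Apoh, or beta-2-glycoprotein I, is a plasma protein that binds anionic phospholipid and heparin. It had the smallest spread of the members (within-group SD 0.18, log2 scale). It averaged 2768 ± 250 CPM in the controls, 2622 ± 477 with Aroclor, 2661 ± 252 with PCB 126 and 2714 ± 235 with the combined exposure. The log2FC with the combined exposure was −0.03, with a 95% interval from −0.27 to 0.22.

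Against PCB 126 alone, 4 of the 10 members were lower with the combined exposure: Apoa1 (log2FC −0.60, adjusted p = 0.0218), Apoc1 (−0.60, adjusted p = 0.0433), Apoc3 (−0.69, adjusted p = 0.0166) and Apoe (−0.70, adjusted p = 0.0252). Of all genes, 16.7% passed in this comparison, 11.0% as lower. The number of members that passed was 0 when replicate 3 or 4 of HFD + PCB 126 or replicate 5 of the combined exposure was left out, and 1 without replicate 4 of the combined exposure. After the G and C correction 0 of the 10 members and 0 of all genes passed in this comparison. For Apoc1, Apoc3 and Apoe the CPM of the 2 groups, without that correction, did not overlap, and the share of all genes without overlap was not counted. Against Aroclor alone 0 of 10 members passed (0.412% of all genes), and 5 members and 3639 genes had an unadjusted p under 0.05. Leaving out replicate 3 of the combined exposure gave 1 member past the threshold there, Apoa4 (log2FC −0.96, adjusted p = 0.0476). For the interaction, 0 of 10 members and 0% of all genes passed, and 1 member and 1846 genes had an unadjusted p under 0.05. The comparisons with HFD control share the same 5 control mice.

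The counts of the libraries differed in how they followed base composition. For each 10 percentage points of transcript G and C content, the log2 CPM of a gene, once its mean was subtracted, changed by 0.245 ± 0.133 (SD, n = 5) in HFD control, −0.0013 ± 0.0761 with Aroclor, 0.109 ± 0.198 with PCB 126 and −0.352 ± 0.167 with the combined exposure. By an exact permutation test (two-sided, 5 mice against 5) the slope differed from HFD control with the combined exposure (p = 0.00794, the smallest this design allows) and with Aroclor (p = 0.0159), and p was 0.230 with PCB 126. The lowest share of apolipoproteins and the lowest slope (−0.560) were those of the same library, replicate 4 of the combined exposure, and the highest share and highest slope (0.440) were both those of replicate 1 of HFD control. The sample labels number the libraries in order of the groups, and the order of the libraries cannot be told apart from the exposure. Whether RNA quality or library preparation moved the slopes was not tested.

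**Figure D2:**
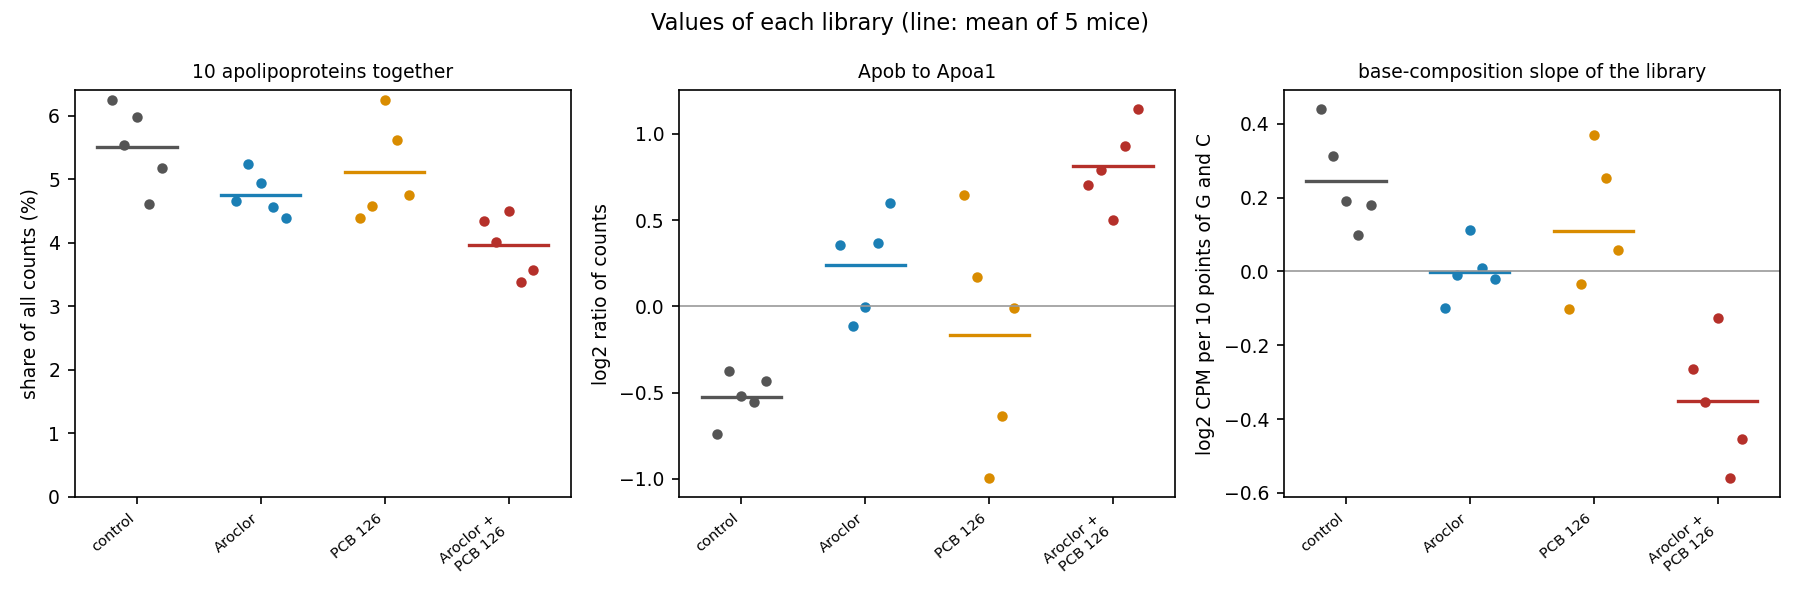
The share of all library counts taken by the 10 apolipoproteins (percent, axis from 0), the log2 ratio of Apob to Apoa1 counts, and the slope of log2 CPM for each 10 percentage points of transcript G and C content. Each point is a mouse and each line the mean of 5 mice. The combined-exposure mice have the lowest mean share (3.96%), the highest mean ratio (0.81) and the lowest mean slope (−0.352).

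Genes of like base composition moved with the members. Among genes with a mean of at least 10 CPM, the median log2FC of the combined exposure was 0.34 at 42 to 46% G and C, 0.13 at 46 to 50%, −0.15 at 50 to 54%, −0.45 at 54 to 58% and −0.72 at 58 to 62%. Within 2 percentage points of Apob, 1432 other genes had a median log2FC of 0.36, and 10% of them exceeded 0.68, while Apob was at 0.55. Within 2 points of Apoe, 396 genes had a median of −0.72, and Apoe was at −0.82. Apoa1 (−0.78), Apoc3 (−0.81) and Apoc1 (−0.73) lay further below the medians of their neighbours in base composition, at −0.44, −0.42 and −0.39. Apoc3 and Apoc1 were also below the lowest 10% of those genes (−0.76 and −0.72), as was Apoa1 (−0.77). Apoa4 (−0.53) was at its neighbours' median of −0.55.

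**Figure D3:**
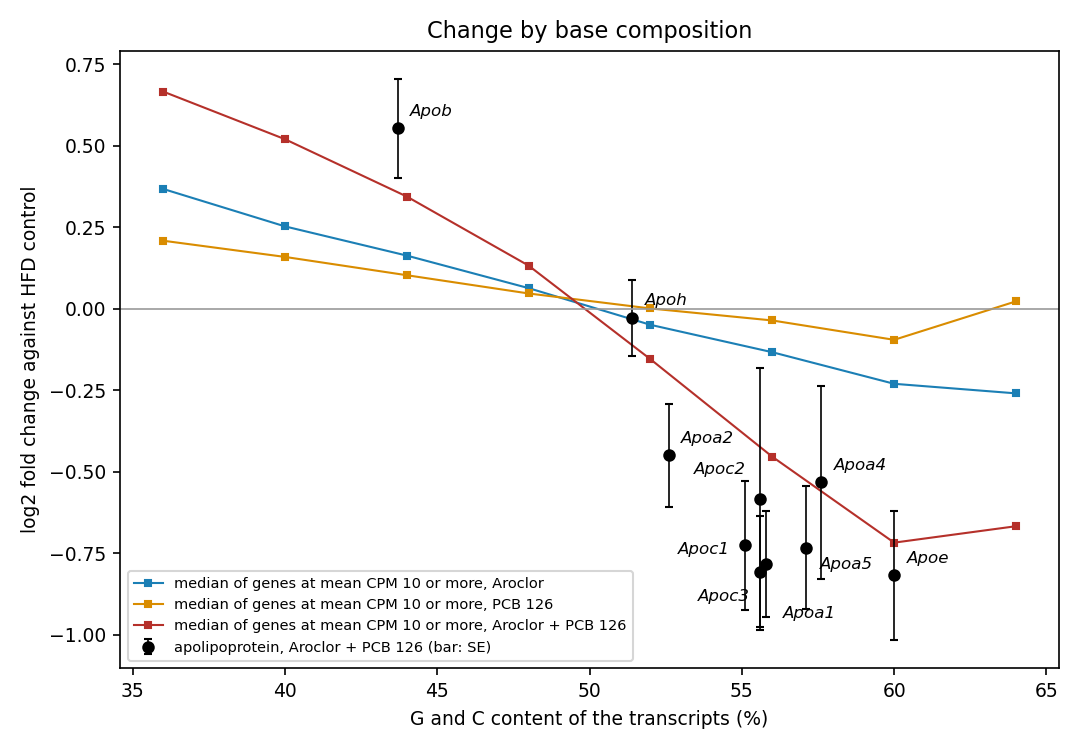
log2 fold change against HFD control by G and C content of the transcripts (percent). Black points with bars are the 10 apolipoproteins with the combined exposure and their standard errors, and the lines join the medians of genes with a mean of at least 10 CPM in steps of 4 percentage points for each exposure. Apob, at 43.7%, is above 0, and the members at 52.6% and over are below it, on the same side as the median line of the combined exposure.

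After correction for G and C content, 3.38% of all genes passed with the combined exposure, and 0 of the 10 members. Their median log2FC went from −0.65 to −0.26, against −0.032 over all genes. An unadjusted p under 0.05 was found for 3 of the 10 and for 3246 of the 15522 genes tested. The largest falls left were those of Apoc3 (log2FC −0.46, adjusted p = 0.108), Apoa1 (−0.42, adjusted p = 0.142) and Apoc1 (−0.41, adjusted p = 0.226). Apob was at 0.19 (adjusted p = 0.442), Apoa2 at −0.31 (adjusted p = 0.314), Apoa5 at −0.27 (adjusted p = 0.410) and Apoe at −0.23 (adjusted p = 0.516). The direction of each of these 7 was kept. With Aroclor, Apoa5 was at −0.41 (adjusted p = 0.418) after the correction, and the other members were between −0.30 and 0.27.

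**Figure D4:**
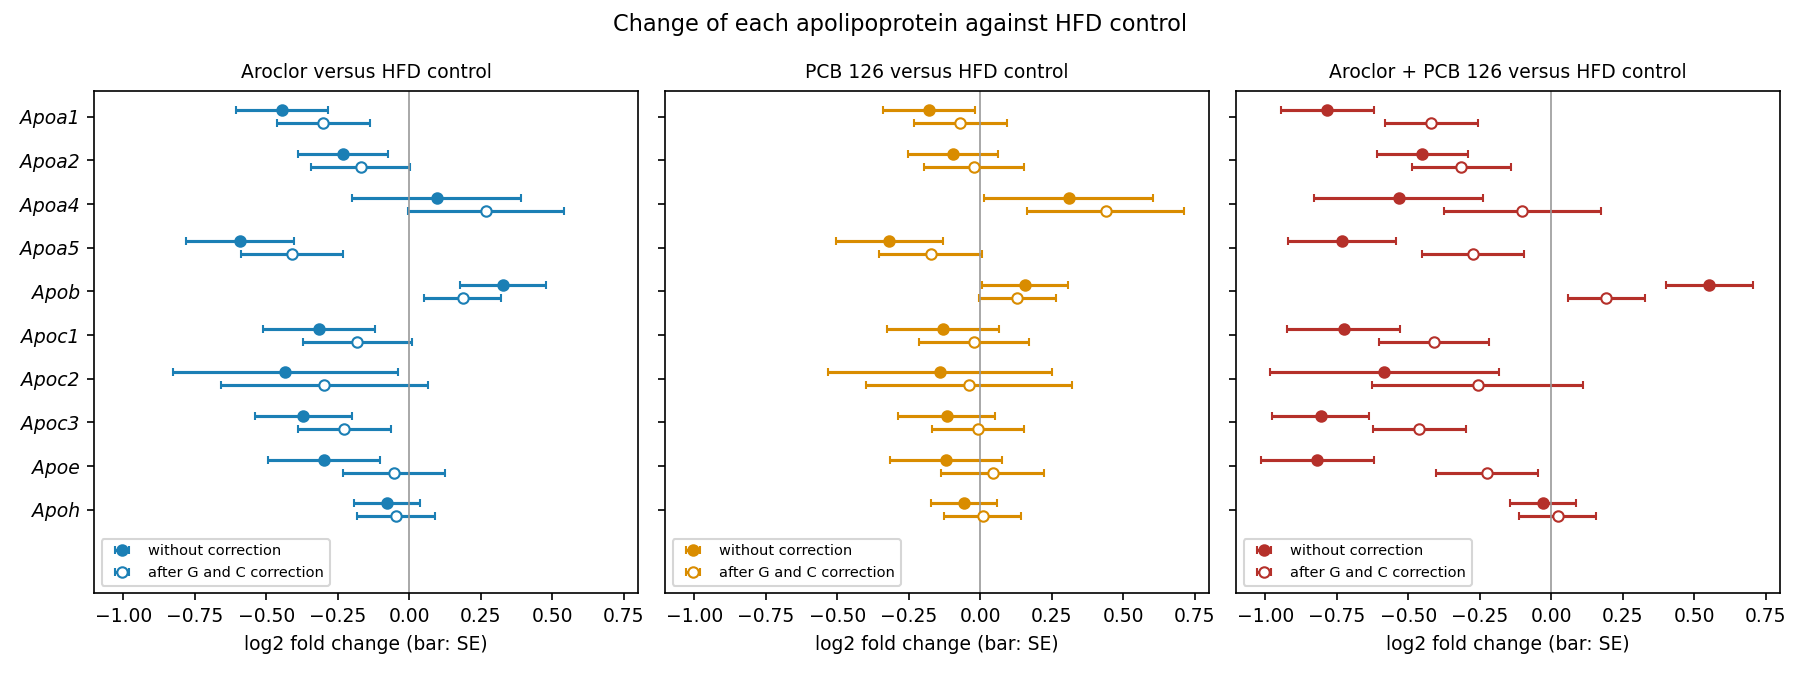
log2 fold change against HFD control of each apolipoprotein with Aroclor, PCB 126 and both (points, with bars for the standard error), without correction (filled) and after correction for G and C content (open). With the combined exposure the filled points run from −0.82 (Apoe) to 0.55 (Apob), and the open points from −0.46 (Apoc3) to 0.19 (Apob).

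Ratios of counts within a library do not depend on its scaling. The log2 ratio of Apob to Apoa1 was −0.74, −0.38, −0.52, −0.55 and −0.43 in the 5 controls and 0.70, 0.79, 0.50, 0.93 and 1.14 with the combined exposure. Apoa1 thus had more reads than Apob in all 5 control livers and fewer in all 5 livers exposed to both. The mean ratio differed by 1.34 on the log2 scale, or 2.53-fold. By the exact permutation test (two-sided, 5 mice against 5) p was 0.00794, the smallest this design allows. Adjusted over 18 ratio tests it was 0.0714. With Aroclor the log2 ratio was 0.36, −0.11, −0.00078, 0.37 and 0.60, also above all controls (difference 0.77, exact p = 0.00794, adjusted p = 0.0714). With PCB 126 it ranged from −0.997 to 0.647 (exact p = 0.270, adjusted p = 0.857). The transcripts of Apob have 43.7% and those of Apoa1 55.8% G and C, and what part of the ratio comes from base composition was not tested.

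Neighbouring members were also compared by their ratios. In the cluster on chromosome 9, the log2 ratio of Apoc3 to Apoa1 differed from HFD control by −0.05 with the combined exposure, 0.05 with Aroclor and 0.07 with PCB 126, and that of Apoa5 to Apoa1 by −0.01, −0.18 and −0.12. The ratio of Apoa4 to Apoa1 was higher by 0.54 with Aroclor, 0.53 with PCB 126 and 0.19 with both. In the cluster on chromosome 7, the ratio of Apoc1 (55.1% G and C) to Apoe (60.0%) differed by 0.09 with the combined exposure, −0.06 with Aroclor and −0.03 with PCB 126. None of these differences passed the exact permutation test (two-sided, p of at least 0.103, adjusted p of at least 0.619).

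The members were also compared by their pattern over the 20 libraries, as the root mean square difference of log2 CPM after centring each gene on its mean. The levels used were not corrected for G and C content, and the part of base composition in these patterns was not tested. Apoc1 and Apoc3 were the closest pair (0.12). They lie on different chromosomes and have 55.1% and 55.6% G and C. Next came Apoc3 and Apoe (0.14), Apoc1 and Apoe (0.15) and Apoa2 and Apoc1 (0.16). Apob was 0.39 from Apoh and 0.56 to 0.82 from the other members. Among 7244 other genes with a mean of at least 10 CPM, those nearest to Apoe were Drap1 (0.067) and Lamtor4 (0.068), to Apob Atf2 (0.066) and Rnft1 (0.068), to Apoc3 Pfdn6 (0.085) and Cox4i1 (0.089), to Apoc1 Dgcr6 (0.096) and Ndufs6 (0.097), to Apoa2 Ndufb8 (0.073) and Naxe (0.073), and to Apoh Ndufb5 (0.068) and Bag1 (0.075). For Apoa1 they were Ears2 and Ngdn (both 0.16), for Apoa5 Plekhj1 and Polr2c (both 0.19), for Apoa4 Wdr18 (0.30) and Myh14 (0.31) and for Apoc2 Pde4c (0.38) and Phf1 (0.39).

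Genes of the wider lipoprotein pathway moved in both directions with the combined exposure, as did the tested genes as a whole. Of all genes 32.8% passed, 15.8% as higher and 17.0% as lower. Of 10 other apolipoproteins and lipoprotein-associated proteins, 6 fell and 0 rose (median log2FC −0.58). Apoc4, a minor VLDL protein encoded between Apoc2 and Apoc1, went from 657 ± 127 to 325 ± 105 CPM (log2FC −1.01, adjusted p = 0.00260), and it still passed after the base-composition correction (−1.05, adjusted p = 0.0270). Apol9a (−1.02, adjusted p = 0.00211, and −0.93 with adjusted p = 0.0248 after correction) and Apol9b (−0.76, adjusted p = 0.00545) are near-identical copies whose reads the counting may have split, so each is uncertain. Apof fell by 0.45 on the log2 scale (adjusted p = 0.00601).

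Among 15 genes of VLDL assembly, 3 rose and 5 fell (median −0.02), where 15.8% of all genes rose and 17.0% fell. Sar1b, a small GTPase of the vesicles that carry large lipoproteins out of the endoplasmic reticulum, went from 169 ± 20.7 to 249 ± 21.6 CPM (log2FC 0.56, adjusted p = 0.00184). Mia2, which helps load that cargo, rose (0.59, adjusted p = 0.00339), as did A1cf, a cofactor of Apob mRNA editing (1.13, adjusted p = 0.00482). Pla2g12b fell (−0.60, adjusted p = 0.00260). Mttp, the lipid transfer protein that loads apolipoprotein B, averaged 354 ± 73.2 CPM in the controls and 403 ± 32.2 with both exposures (log2FC 0.19, adjusted p = 0.363). After the base-composition correction 0 of the 15 passed.

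Of 13 genes of lipoprotein remodelling, 2 rose and 2 fell (median −0.29), where 15.8% of all genes rose and 17.0% fell. Abca1, the cholesterol exporter that lipidates apolipoprotein A-I, averaged 145 ± 48.8 CPM in the controls and 261 ± 29.1 after both exposures (log2FC 0.85, adjusted p = 0.00877). Lmf1, needed for the maturation of lipases, fell (−0.80, adjusted p = 0.00425), as did Lcat (−0.37, adjusted p = 0.0223). Of 10 receptors and their partners, 4 fell and 0 rose (median −0.35), where 17.0% of all genes fell and 15.8% rose. Among them were the HDL receptor Scarb1 (−0.46, adjusted p = 0.00712), the remnant receptor Lrp1 (−0.73, adjusted p = 0.00802) and its chaperone Lrpap1 (−0.38, adjusted p = 0.0119). After the correction 0 of these 23 genes passed.

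Of 18 transcription regulators of hepatic lipid genes, 4 rose and 8 fell (median −0.52), where 15.8% of all genes rose and 17.0% fell. Nr1d1 (REV-ERBα), a circadian repressor, had the smallest p, from 66.2 ± 4.64 CPM in HFD control to 18.2 ± 6.30 with both exposures (log2FC −1.86, adjusted p = 0.000487). It passed after correction too (−1.46, adjusted p = 0.00326). Ppargc1a, a coactivator of nuclear receptors, went from 5.31 ± 0.555 to 10.4 ± 0.969 CPM (log2FC 0.97, adjusted p = 0.000505) and passed after correction (0.67, adjusted p = 0.0184). Creb3l3, an activator of several apolipoprotein genes, fell (−0.53, adjusted p = 0.00234, and −0.11 with adjusted p = 0.667 after correction). Of the exon bases of Nr1d1, 8.55% are shared with Thra on the other strand.

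**Figure D5:**
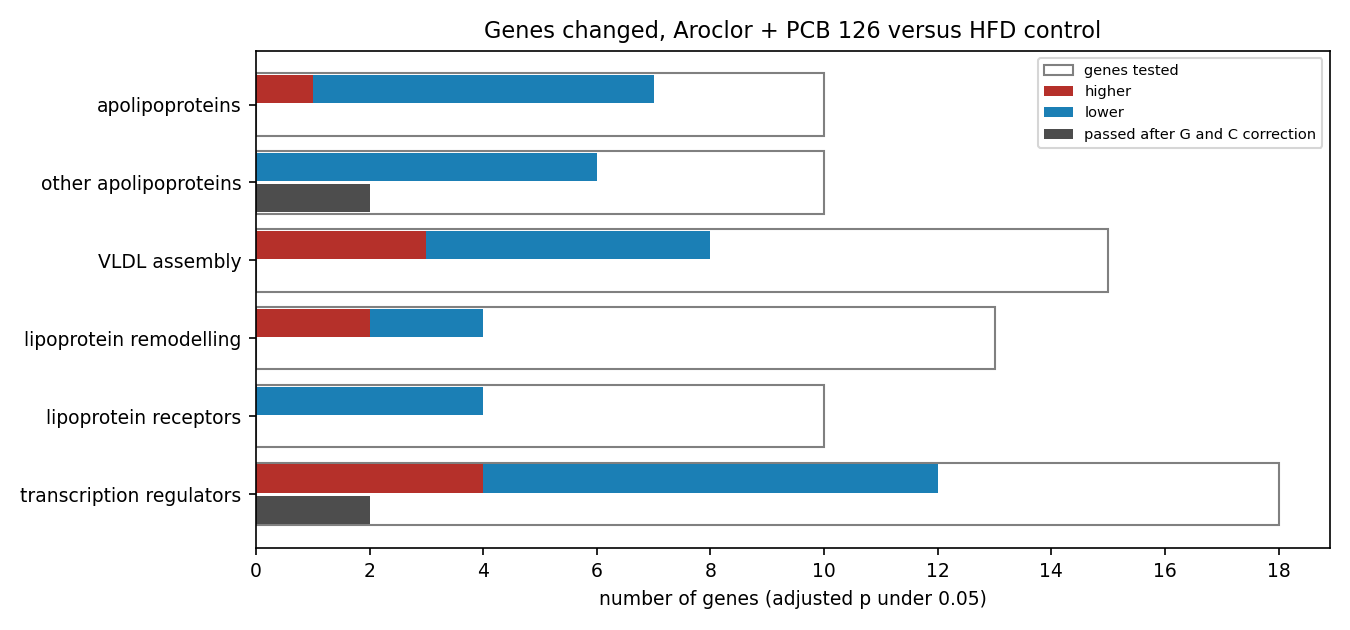
Number of genes (axis from 0) with an adjusted p under 0.05 between the combined exposure and HFD control, for the 10 apolipoproteins and 5 related lists. Outlined bars are the genes tested, coloured bars those higher and lower, and dark bars those that passed after correction for G and C content. The apolipoproteins go from 7 of 10 to 0 of 10, and 2 genes each pass after correction among the other apolipoproteins and the regulators.

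With Aroclor alone and PCB 126 alone, 0 genes of these 5 lists passed. The gene of smallest p with Aroclor was Mia2 in VLDL assembly (log2FC 0.35, adjusted p = 0.224), Angptl4 in remodelling (−0.70, adjusted p = 0.195) and Ppargc1a among the regulators (0.67, adjusted p = 0.184). With PCB 126 it was Sar1b (0.32, adjusted p = 0.215), Abca1 (0.42, adjusted p = 0.408) and Nr1d1 (−1.18, adjusted p = 0.0520, and −1.06 with adjusted p = 0.0377 after the base-composition correction). Among the other apolipoproteins it was Apod with either exposure. Apod was listed at 0 to 66 counts a library in HFD control, 0 to 5 with Aroclor, 0 to 1 with PCB 126 and 0 to 27 with both, and no fold is given.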

How the data were processed

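RNA from 20 mouse livers was sequenced as stranded poly(A) libraries on 2 NextSeq 500 runs, and the run of each library is not given in the sources used here. The authors aligned reads with STAR 2.6 to GRCm38.p6 and counted them per gene with HTSeq 0.10.0, and the deposited values are raw read counts. The annotation release and strand setting are not given in the sources used here.

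Groups and replicate numbers came from the sample labels. For PCB 126 replicate 2 the label holds differing numbers, and the title was followed. Of 21780 genes, 21754 matched GENCODE M21. The 15522 genes whose counts summed to 10 or more were fitted with edgeR 4.0.16 (R 4.3.3, quasi-likelihood test, TMM scaling, 4 groups in 1 fit, Benjamini-Hochberg adjustment, threshold 0.05). For the base-composition correction, a spline with 6 degrees of freedom was fitted per library over transcript G and C content and used as an offset. Ratios were tested by exact permutation. The fits were tested on simulated data. No pair of libraries of the same group agreed within sampling noise, and pairs across groups were not checked in this way.

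The 10 members are always named. From each related list and exposure, up to 4 genes of smallest adjusted p past 0.05 are named, or otherwise the 1 of smallest p. Some genes that this rule names are not reported here. For likeness, the 2 nearest genes with a mean of at least 10 CPM are named. Members and lists were chosen with earlier results of these data known. Alternatives were DESeq2 1.42.0, other scalings and filters, only the groups compared, corrections for G and C content and length, a replicate block, and leaving out each mouse.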

Additional observations from a re-analysis of the deposited data

Results flagged for a closer look

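Apoa2 in replicate 3 of HFD + PCB 126 was at 14918 CPM, while the other 4 mice of the group lay between 9333 and 10666 CPM, and its gap to the nearest was 0.761 of the range. The same library had the highest slope over G and C content of its group (0.369) and its lowest Apob level (3995 CPM). The log2 ratio of Apoc2 to Apoe in replicate 3 of HFD + Aroclor + PCB 126 was −12.875, with the others between −14.121 and −13.783 and a gap of 0.729 of the range. In that library Apoc2 rested on 37 counts. A value was singled out where this gap passed 0.71, which chance gives in about 1 in 20 groups, and 2 of 68 groups of 5 were.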

How the results depend on the processing

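Of 465 values recomputed under other settings without leaving out a mouse, 414 were kept and 15 reversed. A log2 fold change or log2 ratio was kept if its direction and side of the threshold held. Counts were kept if equal or within a set ratio, and shares if they moved by less than their SD. Shares over nuclear protein-coding genes could hardly move, since the count table holds 0 mitochondrial genes. The 465 values include the ratios tested by sign flips within the 5 replicate numbers. The smallest p of that test is 0.0625, so no ratio could pass there. Between the combined exposure and HFD control, the number of apolipoproteins past the threshold went from 7 to 0 under the G and C correction, to 0 under the G and C and length correction, and to 0 under the G and C correction with a replicate block. Against PCB 126 it went from 4 to 0, 0 and 0 under the same settings. Under the G and C correction, genes past the threshold with the combined exposure numbered 2 among other apolipoproteins, 0 in VLDL assembly, 0 in remodelling, 0 among receptors and 2 among regulators, and with PCB 126 there was 1 regulator.

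Reversed log2 fold changes were all near 0. With PCB 126, in the order G and C and length, then G and C with the block, they were 0.0035 and 0.0045 for Apoa2, 0.0035 and 0.012 for Apoc1, and 0.0081 and 0.0087 for Apoc3. Preceded by the G and C correction alone, they were 0.043, 0.057 and 0.085 for Apoe and 0.0083, 0.021 and 0.020 for Apoh, and for Apoh with the combined exposure 0.023, 0.11 and 0.029.

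The groups share replicate numbers, but different mice carry them. The correlation of same-numbered deviations ran from −0.33 to 0.70. Differently numbered samples were not compared, so whether same-numbered samples share more than a number was not tested. With the replicate block, 7 apolipoproteins passed between the combined exposure and HFD control, 5 passed between the combined exposure and PCB 126, and 0 passed with Aroclor or PCB 126 alone. Related genes past the threshold with the block were 1 other apolipoprotein with PCB 126, 1 regulator with Aroclor and 2 regulators with PCB 126.

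By the same rules, leaving out 1 mouse at a time kept 911 of 950 values and reversed 28. In the fits across all genes each of the 20 was left out, those outside the groups compared included. The number of apolipoproteins past the threshold ranged from 0 to 5 for the combined exposure against PCB 126 and from 0 to 1 against Aroclor. The log2 fold change ranged from −0.035 to 0.29 for Apoa4 with Aroclor, −0.45 to 0.089 for Apoc2 with PCB 126, and −0.080 to 0.0038 for Apoh with the combined exposure. With the combined exposure the difference in log2 ratio ranged from −0.023 to 0.34 for Apoa4 to Apoa1, −0.19 to 0.044 for Apoc3 to Apoa1, −0.12 to 0.11 for Apoa5 to Apoa1 and −0.028 to 0.36 for Apoc2 to Apoe. For Apoc3 to Apoa1 it ranged from −0.085 to 0.14 with Aroclor and −0.064 to 0.17 with PCB 126, for Apoc2 to Apoe from −0.34 to 0.048 and −0.35 to 0.15, and for Apoc1 to Apoe with PCB 126 from −0.10 to 0.013. Beyond the corrections' own construction, the cause of these shifts was not tested. Apoc2 rested on 10 to 51 counts a library, and the part of depth or of its shared exon bases in this was not tested.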
